A study of Homo sapiens with 4 samples.

Results

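Branched-chain amino acid catabolism was described through 10 genes, BCAT1, BCAT2, BCKDHA, BCKDHB, BCKDK, DBT, IVD, MCCC1, MCCC2 and PPM1K, found by symbol among the 58051 gene identifiers of the deposited tables; all 10 were found, on 9 chromosomes. Messenger RNA was measured in 2 wild-type human cancer cell lines, H441 from a lung adenocarcinoma and HT29 from a colorectal adenocarcinoma, with the culture medium as the only treatment named. Each line was kept for 7 days in RPMI-1640, a classic culture medium, or in HPLM, human plasma-like medium, whose small molecules are set near their levels in human plasma; both media carried 10% FBS and 1% P/S. There were 3 numbered libraries for each line and medium, 12 in all, under 4 sample entries. The labels do not say whether the 3 libraries of a group came from separate cultures, so every p-value measures only the spread between libraries, which may be technical.

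Leucine, isoleucine and valine are broken down mainly in mitochondria. Branched-chain aminotransferases first pass the amino group to α-ketoglutarate, which gives glutamate and a branched-chain keto acid; BCAT1 does this in the cytosol and BCAT2 in mitochondria. The branched-chain keto acid dehydrogenase complex then commits the keto acid to breakdown. BCKDHA and BCKDHB are the α and β subunits of its E1 component, DBT is its E2 core, BCKDK is the kinase that switches the complex off by phosphorylating E1, and PPM1K is the phosphatase that switches it back on. On the leucine branch IVD, isovaleryl-CoA dehydrogenase, is followed by 3-methylcrotonyl-CoA carboxylase, made of the biotin-carrying subunit MCCC1 and the subunit MCCC2. Transport of leucine into many tumour cells runs through SLC7A5 paired with SLC3A2.

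The stretches upstream of the start sites are shown for BCKDHB and MCCC1, the genes with the largest medium effect in H441 and in HT29 by limma on unscaled TPM, and for MCCC2, the partner subunit of MCCC1. BCKDK had a larger value in H441 after trimmed mean scaling and by DESeq2, and BCKDHA in HT29 by edgeR and DESeq2. The RefSeq promoter table of GRCh38.p14 held 15 start-site entries for 9 of the 10 genes, and BCAT2 was named only. In the 250 bases before each start, on both strands, 2 motifs were searched: the E-box CACGTG, a site class bound by MYC and related factors, and TGATGNAA, the core of the amino acid response element bound by ATF4 dimers; these 2 can overlap by their ends, and no entry of these genes held both. The E-box letters were present in 6.34% of all 35116 promoters of the table and the response element core in 3.14%. Among the genes described here only MCCC1 and MCCC2 held the E-box. It lay in 2 of the MCCC1 entries, whose windows overlap, so that it was counted from 167 and from 76 bases before their starts, and in the MCCC2 entry from 63 bases before the start. The response element core was present in 1 of the BCAT1 entries, from 48 bases before the start. A match of letters is a description and not a measured binding site. Each stretch is given 5′ to 3′ on the gene's strand and holds no exon base of the GENCODE annotation of GRCh38. The MCCC1 stretch lies before a RefSeq start inside the annotated gene (chr3:183015218-183116075, minus strand), not upstream of the whole gene. Capitals mark the E-box, and the BCKDHB stretch holds neither motif.
BCKDHB, chr6:80106421-80106646, plus strand: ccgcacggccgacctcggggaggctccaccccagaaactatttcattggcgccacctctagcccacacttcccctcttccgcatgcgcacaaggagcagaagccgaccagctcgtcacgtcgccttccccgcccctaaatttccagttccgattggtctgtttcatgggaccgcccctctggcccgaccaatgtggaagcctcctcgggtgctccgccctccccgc
MCCC1, chr3:183099588-183099837, minus strand: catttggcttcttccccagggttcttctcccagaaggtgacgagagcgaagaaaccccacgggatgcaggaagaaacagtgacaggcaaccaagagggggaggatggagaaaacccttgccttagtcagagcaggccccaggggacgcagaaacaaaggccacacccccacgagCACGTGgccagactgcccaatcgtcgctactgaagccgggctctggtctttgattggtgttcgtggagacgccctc
MCCC2, chr5:71587090-71587287, plus strand: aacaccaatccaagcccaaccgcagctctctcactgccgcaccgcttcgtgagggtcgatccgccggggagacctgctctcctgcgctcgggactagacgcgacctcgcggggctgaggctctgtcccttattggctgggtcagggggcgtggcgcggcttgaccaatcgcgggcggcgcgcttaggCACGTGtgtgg

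The libraries held 14151527 to 30581810 reads in genes. HT29 RPMI library 1, the shallowest, stood apart from the others of its group: the median gene differed from libraries 2 and 3 by 0.572 and 0.640 on the log2 scale, against 0.063 to 0.205 for every other pair within a group. It is kept in the values below, and the tests and counts in HT29 are also given without it. The share of TPM (the deposited level, read counts per transcript length scaled to the same total in each library) in mitochondrially encoded genes was 24.1 to 28.8% in H441 RPMI and 17.5 to 21.7% in H441 HPLM, and 19.3% in HT29 RPMI library 1, 28.8 and 30.2% in the other HT29 RPMI libraries and 29.6 to 38.7% in HT29 HPLM. All 5 lung epithelial markers reached 1 TPM in H441, with a summed level of 2750 to 2830 TPM in RPMI and 1070 to 1150 TPM in HPLM. The lower sum in HPLM came from SFTPA1, at means of 1450 and 447 TPM in RPMI and HPLM, and SFTPA2, at 978 and 302 TPM. NKX2-1 was at 174 and 162 TPM, NAPSA at 201 and 193 TPM and SFTPB at 2.08 and 5.78 TPM. In HT29, 4 of 5 colonic markers reached 1 TPM, with a sum of 905 to 1600 TPM in RPMI and 892 to 1020 TPM in HPLM, and CDX1 lay below 1 TPM. Most of that sum was KRT20, at a mean of 1080 TPM in RPMI and 929 TPM in HPLM. Of the lung markers 3 of 5 also reached 1 TPM in HT29, with a sum of at most 9.21 TPM. Of the colonic markers 2 of 5 did so in H441, with a sum of at most 4.2 TPM. All 4 general epithelial markers were present in both lines. Of the 6 fibroblast markers, 2 reached 1 TPM in each line; their sum was 59.8 to 64.2 TPM in H441 RPMI and 71.8 to 77.4 TPM in H441 HPLM, and at most 2.31 TPM in HT29. Leukocyte markers summed to at most 10.1 TPM in H441, and to 16.1 to 41.8 TPM in HT29 RPMI and 8.4 to 11.8 TPM in HT29 HPLM; endothelial markers stayed at or below 2.42 TPM in sum in both lines. The part of these markers in the results was not tested.

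**Figure D1:**
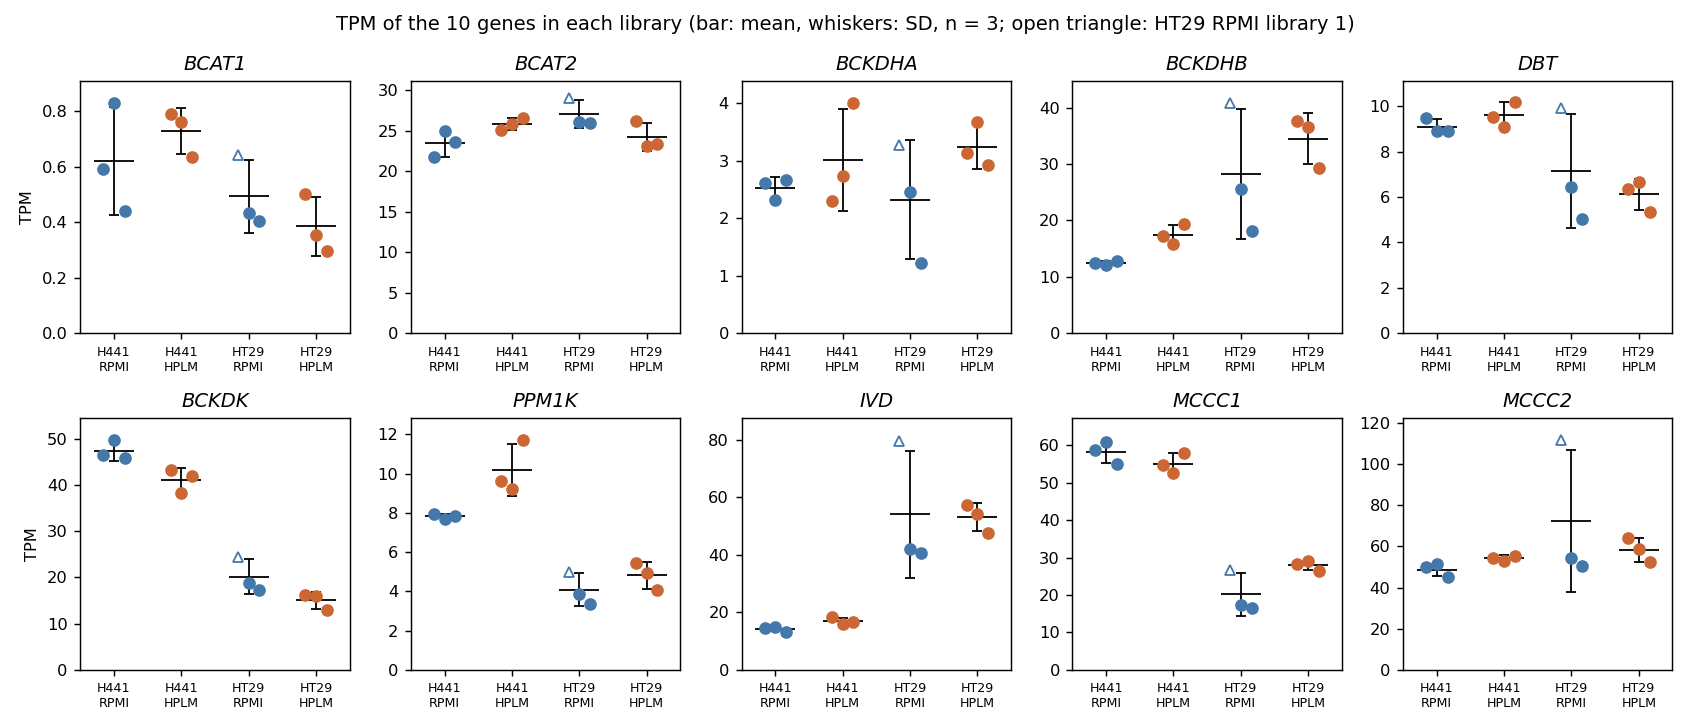
TPM of each of the 10 genes in the 12 libraries, with 1 panel per gene and a linear axis from 0; points are libraries, the bar is the mean and the whiskers the SD of 3 libraries, blue for RPMI and orange for HPLM. The open triangle, HT29 RPMI library 1, lies above libraries 2 and 3 of its group for all 10 genes, for example at 112 TPM against 54.2 and 50.3 TPM for MCCC2.

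Both lines expressed the mitochondrial aminotransferase far above the cytosolic one. BCAT1 (chr12:24810022-24949459, minus strand) was at 0.591, 0.830 and 0.441 TPM in H441 RPMI libraries 1 to 3, at 0.790, 0.760 and 0.636 TPM in H441 HPLM, at 0.643, 0.432 and 0.404 TPM in HT29 RPMI and at 0.503, 0.355 and 0.295 TPM in HT29 HPLM. It lay below 1 TPM in all 12 libraries, with 28 to 59 reads in each, and the media overlapped in both lines. BCAT2 (chr19:48795062-48811029, minus strand) was at 21.7, 25.0 and 23.6 TPM in H441 RPMI and 25.1, 25.8 and 26.5 TPM in H441 HPLM, and at 29, 26.1 and 26.0 TPM in HT29 RPMI and 26.2, 23.1 and 23.3 TPM in HT29 HPLM. The BCAT2 group means ran from 23.4 TPM in H441 RPMI to 27.0 TPM in HT29 RPMI, and neighbours in the order of the 4 means overlapped. Groups further apart did not all overlap. In H441 every HPLM library lay above every RPMI library, as for 42.1% of all genes tested. In RPMI every HT29 library lay above every H441 library, and the lines did not overlap there for 56.1% of all genes. The ratio of BCAT1 to BCAT2 was 0.0264 ± 0.00731 in H441 RPMI, 0.0283 ± 0.00385 in H441 HPLM, 0.0181 ± 0.00358 in HT29 RPMI and 0.0158 ± 0.00327 in HT29 HPLM (SD, n = 3). BCAT1 and its antisense neighbours share 3.90% of its exon bases, and the library kit keeps no strand, so part of its few reads cannot be assigned with certainty.

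The E1 and E2 subunits of the dehydrogenase complex were measured at unequal levels, and BCKDHB was the subunit that rose in HPLM in H441. In bulk RNA such as this, fewer cells of a kind and less RNA per cell cannot be told apart. BCKDHB (chr6:80106647-80346270, plus strand) was at 12.4, 12 and 12.8 TPM in H441 RPMI and at 17.3, 15.9 and 19.3 TPM in H441 HPLM. The 3 HPLM libraries were all above the 3 RPMI libraries, an arrangement found for 42.1% of all genes tested in H441. In HT29 it was at 40.8, 25.6 and 18.2 TPM in RPMI and at 37.7, 36.6 and 29.3 TPM in HPLM. There the high RPMI value was that of library 1, and libraries 2 and 3 lay below every HPLM library. Without library 1 this held for 31.3% of all genes. DBT (chr1:100186919-100249834, minus strand) was at 9.49, 8.90 and 8.90 TPM in H441 RPMI, 9.53, 9.09 and 10.2 TPM in H441 HPLM, 9.93, 6.45 and 5.03 TPM in HT29 RPMI and 6.37, 6.64 and 5.35 TPM in HT29 HPLM, with overlap between media in both lines. BCKDHA (chr19:41397460-41425005, plus strand) was at 2.62, 2.31 and 2.66 TPM in H441 RPMI, 2.30, 2.74 and 4.00 TPM in H441 HPLM, 3.28, 2.46 and 1.22 TPM in HT29 RPMI and 3.14, 3.68 and 2.92 TPM in HT29 HPLM. Its level is uncertain: 64.6% of its exon bases also belong to exons of other genes, with 63.8% in AC011462.1 alone, a protein-coding gene on the same strand that reached at most 0.0881 TPM, and counting per gene can drop reads from shared bases. BCKDHA rested on 27 to 70 reads per library, and its ratios carry the same doubt. Its ratio to BCKDHB was 0.204 ± 0.00962 in H441 RPMI and 0.0812 ± 0.0144 in HT29 RPMI (SD, n = 3). In HPLM it was 0.171 ± 0.037 in H441 and 0.0945 ± 0.00973 in HT29, and the media overlapped in both lines. The ratio of DBT to BCKDHA was 3.61 ± 0.258 in H441 RPMI and 3.34 ± 0.79 in H441 HPLM, which overlap. In HT29 it was 3.26 ± 0.777 in RPMI and 1.89 ± 0.123 in HPLM, with no overlap.

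The ratio of the kinase to the phosphatase of the complex was lower in HPLM in both lines. BCKDK (chr16:31106107-31112791, plus strand) was at 46.5, 49.7 and 45.8 TPM in H441 RPMI and 43.2, 38.4 and 41.9 TPM in H441 HPLM, and at 24.5, 18.9 and 17.2 TPM in HT29 RPMI and 16.3, 16.0 and 12.9 TPM in HT29 HPLM. In each line every HPLM library lay below every RPMI library; libraries were arranged that way for 15.6% of all genes tested in H441 and 20.5% in HT29. PPM1K (chr4:88257620-88284769, minus strand) was at 7.95, 7.70 and 7.85 TPM in H441 RPMI and 9.65, 9.21 and 11.7 TPM in H441 HPLM, where every HPLM library lay above every RPMI library, an arrangement found for 42.1% of all genes tested in H441. In HT29 it was at 5, 3.85 and 3.36 TPM in RPMI and 5.44, 4.94 and 4.07 TPM in HPLM; these overlapped, and no longer did so without RPMI library 1, as for 31.3% of all genes with HPLM higher. The TPM ratio of BCKDK to PPM1K, which no scaling of a library can alter, was 5.85, 6.46 and 5.84 in H441 RPMI and 4.47, 4.17 and 3.57 in H441 HPLM. In HT29 it was 4.89, 4.91 and 5.13 in RPMI and 2.99, 3.24 and 3.18 in HPLM. The media did not overlap in either line, the mean ratio in RPMI was 1.49 times that in HPLM in H441 and 1.59 times in HT29, and HT29 RPMI library 1, at 4.89, lay beside the other 2 libraries of its group. The ratio was described without a test. The share of all gene pairs whose ratio separates the media in this way was not counted, so the separation is not read as particular to this pair.

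**Figure D2:**
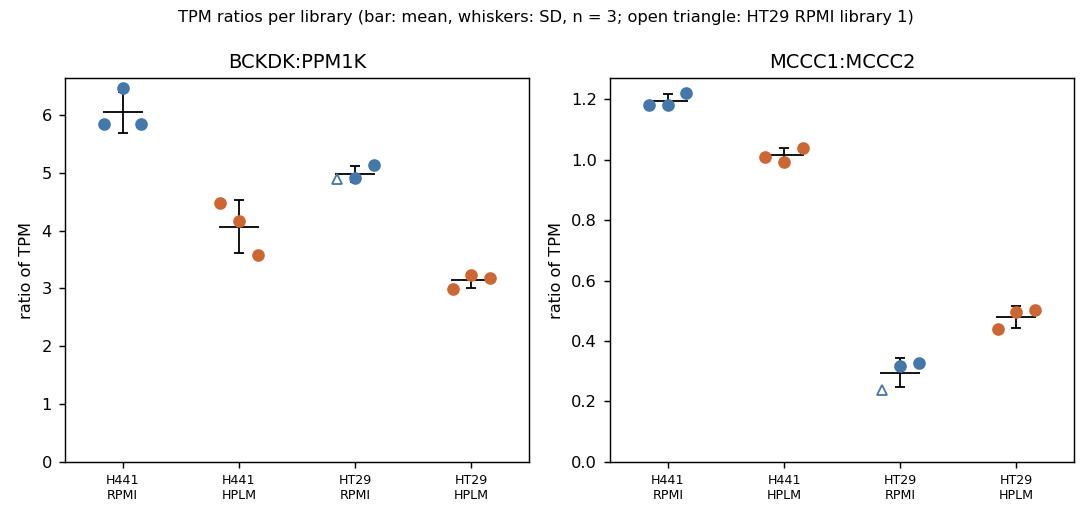
TPM ratio of BCKDK to PPM1K (left) and of MCCC1 to MCCC2 (right) in each library; points are libraries, the bar is the mean and the whiskers the SD of 3 libraries, and the open triangle is HT29 RPMI library 1. BCKDK:PPM1K was lower in HPLM in both lines (means of 6.05 and 4.07 in H441, 4.98 and 3.14 in HT29), while MCCC1:MCCC2 was lower in HPLM in H441 and higher in HPLM in HT29.

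On the leucine branch IVD was higher in HT29 and MCCC1 higher in H441, while MCCC2 overlapped between the lines in both media. The 2 carboxylase subunits did not keep one ratio. IVD (chr15:40405795-40435947, plus strand) was at 14.4, 14.8 and 13.3 TPM in H441 RPMI and 18.2, 15.8 and 16.6 TPM in H441 HPLM. These did not overlap, and HPLM was higher in this way for 42.1% of all genes tested in H441. IVD was at 79.5, 42.2 and 40.6 TPM in HT29 RPMI and 57.3, 54.2 and 47.7 TPM in HT29 HPLM. MCCC1 (chr3:183015218-183116075, minus strand) was at 58.7, 61.0 and 55.1 TPM in H441 RPMI and 54.7, 52.5 and 58.0 TPM in H441 HPLM, which overlap. In HT29 MCCC1 was at 26.8, 17.2 and 16.5 TPM in RPMI and 28.2, 29.1 and 26.5 TPM in HPLM, which overlap only through RPMI library 1. Without that library every HPLM value was higher, as for 31.3% of all genes. MCCC1 shares 1.67% of its exon bases with the antisense gene MCCC1-AS1, at most at 2.05 TPM, whose reads cannot be told apart there. MCCC2 (chr5:71587288-71658704, plus strand) was at 49.8, 51.5 and 45.0 TPM in H441 RPMI and 54.4, 52.9 and 55.6 TPM in H441 HPLM, and at 112, 54.2 and 50.3 TPM in HT29 RPMI and 64.3, 58.6 and 52.6 TPM in HT29 HPLM. The MCCC1 to MCCC2 ratio was 1.18, 1.18 and 1.22 in H441 RPMI and 1.01, 0.993 and 1.04 in H441 HPLM, a mean HPLM ratio 0.848 times that in RPMI. In HT29 it was 0.239, 0.317 and 0.327 in RPMI and 0.439, 0.496 and 0.503 in HPLM, 1.63 times that in RPMI. The media did not overlap in either line, the direction was opposite in the 2 lines, and this difference of the ratio was not tested. For ratios of other gene pairs the share with such separation was not counted.

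Between the lines, which were deposited in separate tables and are set side by side without a test, 3 genes were higher in H441 and 2 higher in HT29 in both media with no overlap of libraries. BCKDK was 2.35 times higher in H441 in RPMI and 2.73 times in HPLM, MCCC1 2.89 and 1.97 times, and PPM1K 1.92 and 2.12 times. IVD was 3.82 times higher in HT29 in RPMI and 3.15 times in HPLM, and BCKDHB 2.28 and 1.97 times. Without library 1 the HT29 RPMI means were 18.1 TPM for BCKDK, 16.8 for MCCC1, 3.60 for PPM1K, 41.4 for IVD and 21.9 for BCKDHB. Libraries of the lines did not overlap, in either direction, for 56.1% of all genes tested in RPMI and 77.0% in HPLM, so such separation was common. For BCKDK the order of the 4 group means was H441 RPMI, H441 HPLM, HT29 RPMI, HT29 HPLM, with no overlap between neighbours. The share of all genes with 4 groups apart in this way was not counted, so this is not read as particular to BCKDK. For IVD the order was HT29 RPMI, HT29 HPLM, H441 HPLM, H441 RPMI, with overlap between the 2 HT29 groups. For MCCC1 it was H441 RPMI, H441 HPLM, HT29 HPLM, HT29 RPMI, with overlap between media in each line.

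In H441, 3 of the 9 genes that could be tested rose in HPLM and none fell (limma on log2 of TPM + 1, adjusted over all 16458 genes that reached 1 TPM in at least 3 libraries, threshold 0.05). Each of the 9 passed that filter in every group, and BCAT1 did not pass it in either line. Of all genes tested, 33.7% rose and 11.3% fell, so 3 of 9 is a share like that of all genes and is no result about the pathway as a whole; the median change of the 9 genes was 0.15 against 0.14 for all genes. BCKDHB rose by 0.46 ± 0.08 on the log2 scale (SE, adjusted p = 0.00637), PPM1K by 0.34 ± 0.09 (adjusted p = 0.0303) and IVD by 0.23 ± 0.07 (adjusted p = 0.0434). BCKDK, at -0.20 ± 0.07, missed the threshold (adjusted p = 0.0522). The changes of BCKDHA (0.17), MCCC2 (0.15), BCAT2 (0.14), DBT (0.07) and MCCC1 (-0.08) did not pass the test.

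The H441 calls depended on the scale, because the median gene itself was 0.14 higher in HPLM in TPM. Relative to that median BCKDHB stood 0.32 and PPM1K 0.19 higher, IVD 0.09 higher, MCCC1 at -0.22 and BCKDK at -0.34. After trimmed mean scaling BCKDHB rose by 0.31 ± 0.07 (adjusted p = 0.0203), BCKDK fell by 0.36 ± 0.04 (adjusted p = 0.00207) and MCCC1 fell by 0.24 ± 0.04 (adjusted p = 0.00579), while PPM1K (0.19, adjusted p = 0.116) and IVD (0.08, adjusted p = 0.260) no longer passed; of all genes 22.4% then rose and 22.7% fell. The same 3 genes were called, in the same directions, when TPM was rescaled without the mitochondrially encoded genes. BCKDHB was called under all 16 alternatives tried in H441, at 0.28 to 0.52. PPM1K lost its call without RPMI library 1, 2 or 3 or HPLM library 1 (adjusted p = 0.0316 to 0.088 over the 6 fits that leave out 1 library), and IVD kept its call only without HPLM library 2 (0.0476 to 0.119). In the authors' deposited table for H441, BCKDHB (0.33, adjusted p = 0.00400) and PPM1K (0.21, adjusted p = 0.0311) were higher in HPLM and BCKDK (-0.36, adjusted p = 5.15e-08) and MCCC1 (-0.24, adjusted p = 4.40e-05) lower.

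**Figure D3:**
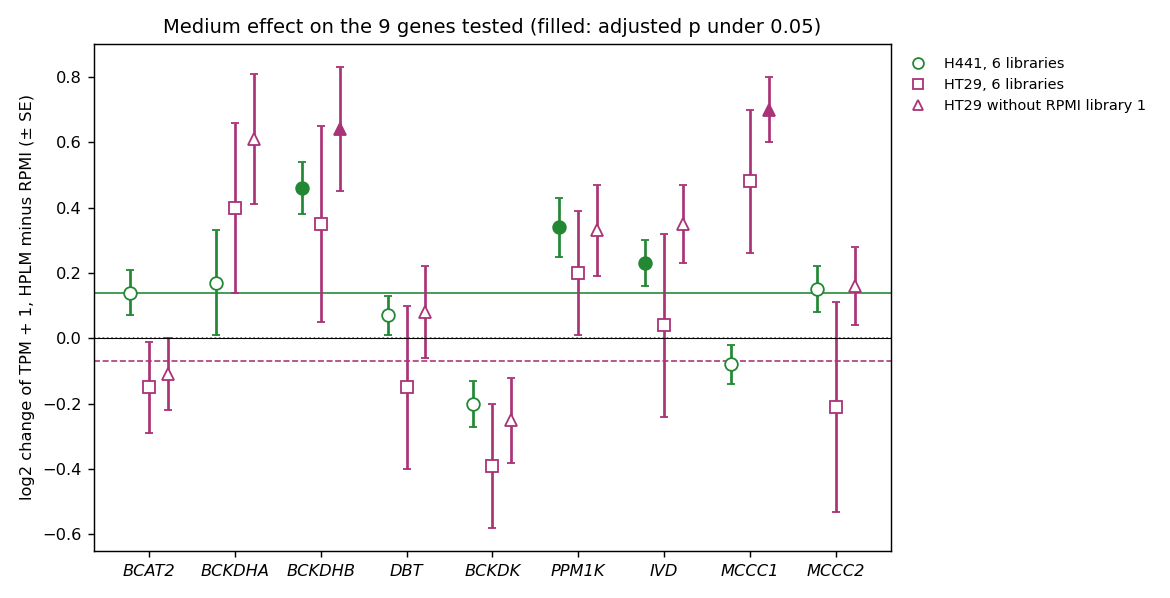
Change between media (HPLM minus RPMI, log2 of TPM + 1) with its SE for the 9 genes tested, in H441 (green circles), in HT29 (purple squares) and in HT29 without RPMI library 1 (purple triangles); filled symbols have an adjusted p under 0.05 and horizontal lines mark the median of all genes in each fit. BCKDHB, PPM1K and IVD are filled in H441, none in HT29 with all 6 libraries, and BCKDHB and MCCC1 in HT29 without library 1.

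In HT29 with all 6 libraries, 0 of the 9 genes passed the test by limma, where 2.53% of the 16352 genes tested rose and 3.58% fell, and 0 of the 9 had an unadjusted p under 0.05; edgeR on the recovered reads also called 0 (10.8% of all genes in either direction) and DESeq2 called 1, MCCC1 (21.2%). The largest value by limma was that of MCCC1, at 0.48 ± 0.22 (SE, adjusted p = 0.227), followed by BCKDHA at 0.40 ± 0.26, BCKDK at -0.39 ± 0.19 and BCKDHB at 0.35 ± 0.30. In the authors' deposited table MCCC1 was higher in HPLM in HT29 (0.58, adjusted p = 0.0173) and the other 9 genes had adjusted p-values of 0.112 or more. Without RPMI library 1, MCCC1 rose by 0.70 ± 0.10 (adjusted p = 0.00397) and BCKDHB by 0.64 ± 0.19 (adjusted p = 0.0374), 2 of 9 genes where 17.8% of all 17273 genes tested rose and 21.4% fell. IVD (0.35 ± 0.12, adjusted p = 0.0604), PPM1K (0.33 ± 0.14, adjusted p = 0.104) and BCKDK (-0.25 ± 0.13, adjusted p = 0.185) did not pass there. With trimmed mean scaling added, a combination chosen after seeing the data, IVD (0.38, adjusted p = 0.00641) and PPM1K (0.35, adjusted p = 0.0222) rose too, 4 of 9 where 24.6% of all genes rose and 24.8% fell. With edgeR on the recovered reads and the same 5 libraries 6 of 10 genes rose, among them BCKDHA and MCCC2, and BCKDK fell by 0.24 (adjusted p = 0.0199), where 30.6% of all genes rose and 30.9% fell. In limma on TPM the median change of the 9 genes was 0.33 without RPMI library 1, against 0.00 for all genes, and 0.04 against -0.07 with the library kept.

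The difference of the medium effect between the lines, HT29 minus H441, was tested over all 12 libraries. None of the 9 genes passed, where 14.4% of the 19212 genes tested did in either direction; MCCC1 had an unadjusted p under 0.05 in limma, and edgeR and DESeq2 on the recovered reads each called that gene alone of the 10, where they called 16.7% and 22.2% of all genes. MCCC1 had the largest difference by limma, 0.56 ± 0.23 (SE, adjusted p = 0.128). It passed under 8 of 24 alternatives, among them trimmed mean scaling (0.80 ± 0.15, adjusted p = 0.00827), edgeR (0.85, adjusted p = 0.0027) and leaving out HT29 RPMI library 1 (0.78 ± 0.10, adjusted p = 4.26e-04), and was above 0 under all 24, with adjusted p-values of 7.86e-10 to 0.236. For BCKDHB the difference was -0.11 ± 0.33 and for BCKDK -0.19 ± 0.20, neither past the test.

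A further 57 genes were listed by role. They cover the pathway and, outside it, transporters, related dehydrogenase complexes, aminotransferases and described regulators. Of these, 52 were tested in H441, where 18 rose and 6 fell, while 33.7% of all genes tested rose and 11.3% fell. After trimmed mean scaling 14 of them rose and 22 fell, with 22.4% and 22.7% for all genes. In HT29, 54 were tested, of which 3 rose and 4 fell, with 2.53% and 3.58% for all genes, and 8 rose and 19 fell without RPMI library 1, with 17.8% and 21.4%. Each list count below is to be read against these shares. Their median change was 0.11 in H441 and -0.25 in HT29, and -0.15 in HT29 without RPMI library 1, beside 0.14, -0.07 and 0.00 for all genes.

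Enzymes that act beside or after the dehydrogenase moved in both directions. Of 4 genes of the shared E3 subunit and of lipoylation, the step that arms DBT, 2 rose and 0 fell in H441, with a median of 0.42 (1 and 0 after trimmed mean scaling). LIPT1, a lipoyltransferase, rose from 9.45 ± 0.358 to 16.5 ± 0.327 TPM (0.75, adjusted p = 3.54e-04), and LIAS, lipoyl synthase, from 37.8 ± 2.43 to 46.4 ± 1.39 TPM (0.29, adjusted p = 0.0135; 0.13 and adjusted p = 0.130 after trimmed mean scaling). In HT29 0 of these 4 passed, with or without RPMI library 1.

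On the isoleucine and valine branches 3 of 9 genes rose and 0 fell in H441, with a median of 0.00, and 2 rose and 5 fell after trimmed mean scaling. ALDH6A1, methylmalonate semialdehyde dehydrogenase of the valine branch, went from 16.4 ± 0.903 to 25.6 ± 0.754 TPM there (0.61, adjusted p = 9.47e-04). ACADSB, the short/branched-chain acyl-CoA dehydrogenase of the isoleucine branch, rose in H441 as well (0.40, adjusted p = 0.00154). In HT29 1 of the 9 rose, and 2 rose and 1 fell without RPMI library 1. ALDH6A1 rose from 5 ± 0.342 to 9.24 ± 0.770 TPM in HT29 (0.77, adjusted p = 0.0362; 0.80, adjusted p = 0.00385 without RPMI library 1). HIBADH, 3-hydroxyisobutyrate dehydrogenase of the valine branch, was at -0.52 in HT29 (adjusted p = 0.102) and fell by 0.46 without RPMI library 1 (adjusted p = 0.0278). AUH, methylglutaconyl-CoA hydratase of the leucine branch, did not pass in either line (0.10, adjusted p = 0.534 in H441 and -0.12, adjusted p = 0.664 in HT29).

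Of 6 propionate genes 1 rose and 1 fell in H441, and 1 rose and 3 fell after trimmed mean scaling. MMUT, the mutase that forms succinyl-CoA, rose (0.39, adjusted p = 0.00899) and MCEE, the epimerase before it, fell (-0.36, adjusted p = 0.00737). In HT29 0 of the 6 passed with all libraries, and without RPMI library 1 0 rose and 3 fell. PCCB, a subunit of propionyl-CoA carboxylase, was at -0.77 in HT29 (adjusted p = 0.137) and fell by 0.50 without RPMI library 1 (adjusted p = 0.0262), and MCEE fell by 0.46 there (adjusted p = 0.0317). Of 3 biotin genes SLC5A6, a biotin transporter, was the 1 that rose in H441 (0.27, adjusted p = 0.0369; 0.11 and adjusted p = 0.233 after trimmed mean scaling, under which 0 rose and 1 fell). In HT29 0 of the 3 passed, with BTD, biotinidase, at 0.35 (adjusted p = 0.307), and SLC5A6 rose by 0.68 without RPMI library 1 (adjusted p = 0.00643).

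Over the 13 genes of the related dehydrogenase complexes 2 rose and 4 fell in H441, and 2 rose and 10 fell after trimmed mean scaling. In HT29 1 rose and 3 fell, and 2 rose and 6 fell without RPMI library 1. PDK3, a kinase of the pyruvate dehydrogenase complex, fell from 38.5 ± 0.697 to 25.4 ± 1.18 TPM in H441 (-0.58, adjusted p = 8.02e-04) and from 3.84 ± 0.152 to 1.01 ± 0.208 TPM in HT29 (-1.27, adjusted p = 0.0125; -1.25, adjusted p = 0.00123 without RPMI library 1). The other kinases, given here after their values were seen, were PDK4 at -0.35 (adjusted p = 0.0328), PDK2 at -0.15 (adjusted p = 0.296) and PDK1 at 0.18 (adjusted p = 0.0758) in H441. There PDK4 went from 1.25 ± 0.125 to 0.766 ± 0.212 TPM, and it passed the filter of 1 TPM only with its RPMI libraries, where it was high. The HPLM mean of PDK3 in HT29, 1.01 TPM, also lay at that filter. These 2 calls at the filter are not read as support. In HT29 without RPMI library 1 PDK4 was at -2.07 (adjusted p = 2.76e-04), PDK1 at -0.91 (adjusted p = 0.00281) and PDK2 at 0.06 (adjusted p = 0.755); with the library kept they were at -1.36 (adjusted p = 0.208), -0.81 (adjusted p = 0.0441) and -0.21 (adjusted p = 0.668). PDP1, a phosphatase of that complex, rose from 84.5 ± 0.606 to 149 ± 5.58 TPM in H441 (0.81, adjusted p = 2.84e-04) and from 9.62 ± 1.12 to 16.8 ± 1.33 TPM in HT29 (0.74, adjusted p = 0.0454; 0.67, adjusted p = 0.00781 without RPMI library 1). PDP2, the other phosphatase, rose in H441 (0.50, adjusted p = 0.00194) and fell in HT29 (-0.80, adjusted p = 0.0349; -0.81, adjusted p = 0.00427 without RPMI library 1).

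**Figure D4:**
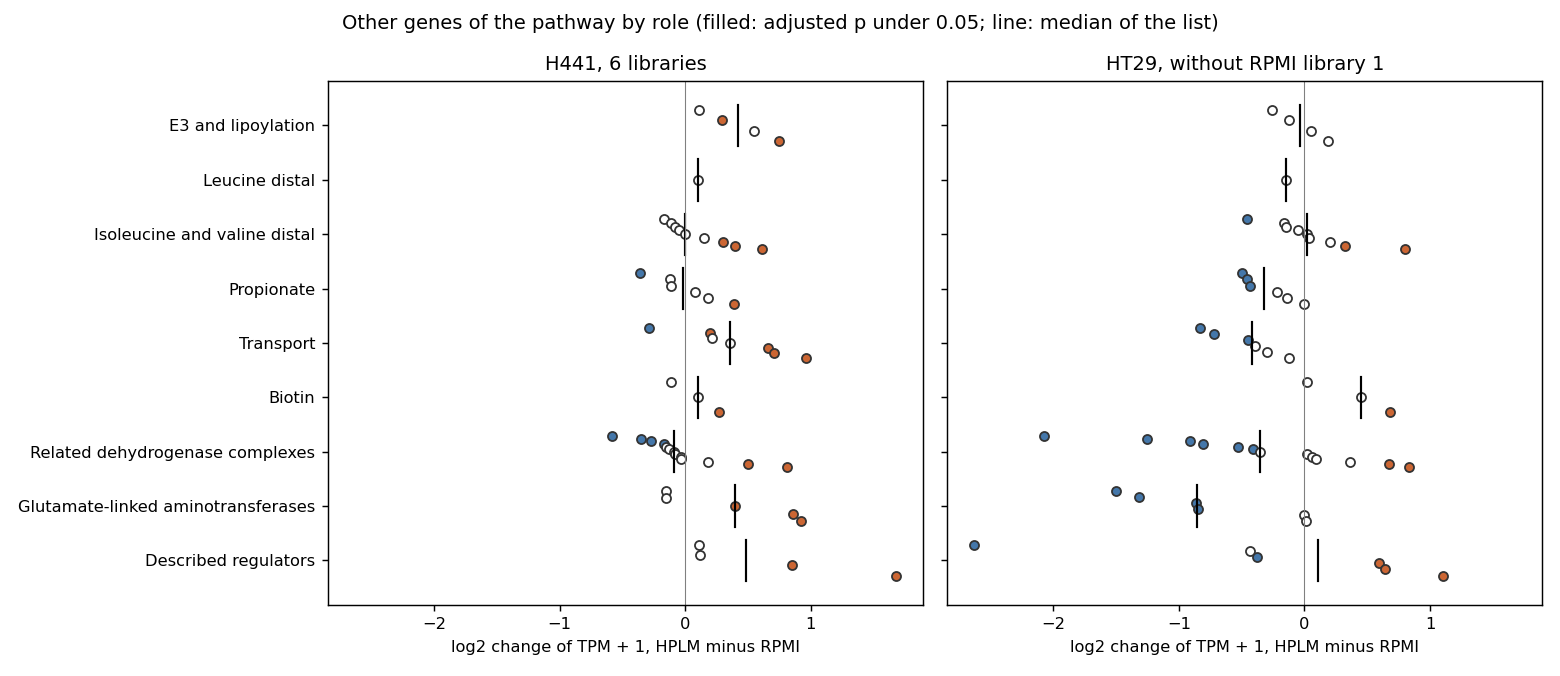
Change between media (HPLM minus RPMI, log2 of TPM + 1) of the other genes listed by role, of the pathway and beside it, in H441 (left) and in HT29 without RPMI library 1 (right). Each list has 1 row and each gene tested 1 point. Filled points have an adjusted p under 0.05, orange for higher and blue for lower in HPLM, and the short line is the median of the list. The transport list has a median of 0.36 in H441 and -0.42 in HT29, and the aminotransferase list 0.40 and -0.86.

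Of 7 amino acid transporters tested in H441 4 rose and 1 fell (3 and 1 after trimmed mean scaling), with a median of 0.36. SLC3A2 went from 247 ± 13.2 to 482 ± 17.6 TPM (0.96, adjusted p = 3.24e-04) and its partner SLC7A5 from 425 ± 27.1 to 697 ± 32.4 TPM (0.71, adjusted p = 9.74e-04). In HT29 0 of 6 transporters passed, and without RPMI library 1 0 rose and 3 fell. SLC43A1, a neutral amino acid carrier, fell by 0.83 (adjusted p = 0.00287), and SLC7A5 was at -0.45 (adjusted p = 0.0349). The third was SLC1A5, given here after its value was seen, at -0.72 (adjusted p = 0.00562). SLC3A2 did not pass there (-0.30, adjusted p = 0.0672). Of 5 glutamate-linked genes tested in H441 3 rose and 0 fell (3 and 2 after trimmed mean scaling), with a median of 0.40. Among them were GOT1, the cytosolic aspartate aminotransferase (0.86, adjusted p = 3.01e-04), and PSAT1, phosphoserine aminotransferase (0.92, adjusted p = 3.21e-04). In HT29 1 of 6 fell, and 4 of 6 without RPMI library 1. GOT1 fell in HT29 from 112 ± 10.8 to 64.9 ± 5.13 TPM (-0.77, adjusted p = 0.0415; adjusted p = 0.0583 after trimmed mean scaling; -0.85, adjusted p = 0.00287 without RPMI library 1), and GPT2, a mitochondrial alanine aminotransferase, was at -1.08 (adjusted p = 0.129) and fell by 1.5 without RPMI library 1 (adjusted p = 4.92e-04). The test of the difference of the medium effect between the lines covered these genes among all others. Its values for them are not given here, so no difference between the lines is read from these effects.

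Among regulators described for the pathway 2 of 4 tested rose and 0 fell in H441. MYC rose from 209 ± 5.18 to 673 ± 30.9 TPM (1.68, adjusted p = 8.61e-05) and HIF1A from 501 ± 8.33 to 906 ± 33.4 TPM (0.85, adjusted p = 2.61e-04). In HT29 1 of 6 rose and 0 fell, PPARGC1A, a coactivator of mitochondrial genes, which went from 0.926 ± 0.253 to 2.83 ± 0.151 TPM (1.00, adjusted p = 0.0237; 1.10, adjusted p = 0.00102 without RPMI library 1). With an RPMI mean below 1 TPM, PPARGC1A passed the filter of 1 TPM in 3 libraries only with its HPLM libraries, where it was high. Its call is therefore not read as support for a rise among the regulators. MYC was at -0.12 (adjusted p = 0.929) and HIF1A at -0.74 (adjusted p = 0.198) in HT29. Without RPMI library 1 3 rose and 2 fell there: PPARGC1A, KLF15 (0.59, adjusted p = 0.00738) and MYC (0.64, adjusted p = 0.0200) rose, and ATF4 (-0.38, adjusted p = 0.0486) and MLXIPL (-2.63, adjusted p = 2.43e-04) fell, the last 2 named after their values were seen.

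Genes whose pattern was most like that of 3 members were found by Pearson's r of log2 of TPM + 1 over the 12 libraries, which share lines and media, among genes with a mean of at least 5 TPM. For BCKDK these were ARF6, PGM1 and EHBP1L1, each at 0.996. For BCAT2 they were GALK2 at 0.883, RPN1 at 0.865 and CCDC9 at 0.860, and for BCAT1, with its few reads, RCC2 at 0.938, DDX6 at 0.914 and ANAPC13 at 0.912.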

How the data were processed

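Per the labels' protocols, polyA RNA was sequenced from unstranded Illumina TruSeq v2 libraries. The submitters' processing notes name STAR 2.5.2b, Trimmomatic 0.36, Subread 1.5.2, DESeq2 and GRCh38; annotation and options are not given in the sources. The authors deposited TPM per gene for each line, and a table of their own log2 fold changes and adjusted p-values with a signal per library. That deposited signal is a read count divided by a size factor; multiplied back, 100% of values lay within 0.01 of whole reads, which served as recovered counts.

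Each line was fitted with limma 3.58.1 (R 4.3.3, lmFit and eBayes) on log2 of TPM + 1 for genes with at least 1 TPM in at least 3 libraries, HPLM minus RPMI, two-sided, with Benjamini-Hochberg adjustment over all genes and a threshold of 0.05; the interaction used all 12 libraries. edgeR 4.0.16 (quasi-likelihood) and DESeq2 1.42.0 on the recovered counts were alternatives, beside another pseudocount, filters, scalings, limma options, a replicate block and leaving out each library. Combinations of a scaling or edgeR with no HT29 RPMI library 1, and the tests of BCAT1, were added after seeing the data. The fits were tested on simulated data. The members, lists and tests were chosen with earlier results of these data known. Named were all 10 members, per list and line the 2 genes of lowest adjusted p whose mean reached 1 TPM, and 3 most alike genes for 3 members. A gene the rule names in 1 line may also be given in the other, and genes named after their values were seen are marked. Of the planned lists 1 gene is not reported here.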

Additional observations from a re-analysis of the deposited data

Results flagged for a closer look

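The ratio of MCCC1 to MCCC2, the 2 subunits of 3-methylcrotonyl-CoA carboxylase, went opposite ways in the 2 lines: the mean ratio in HPLM was 0.848 times that in RPMI in H441 and 1.63 times that in RPMI in HT29, and all 3 HPLM libraries lay on that side of all 3 RPMI libraries in each line. The HT29 RPMI mean includes library 1, which had the lowest ratio of its group, at 0.239, and makes the 1.63 larger. The difference between the lines was not tested for the ratio. How many other gene pairs have ratios apart in this way, or in opposite directions in the lines, was not counted. Among single genes in H441, 42.1% had all HPLM libraries above all RPMI libraries and 15.6% had them below. The separation is therefore not read as particular to this pair.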

How the results depend on the processing

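Of 308 values of single genes under the alternatives, 239 kept direction and side of the threshold, 21 no longer passed it, 25 newly passed it and 23 changed sign. In H441 the number of genes raised went from 3 to 1 with no filter on low values, trimmed mean scaling, median centring, no mitochondrially encoded genes or the replicate block, and ran from 1 to 3 when 1 library was left out. The number lowered went from 0 to 1 with a minimum of 5 TPM or with limma's trend and robust options, and to 2 with trimmed mean scaling, median centring, no mitochondrially encoded genes, edgeR or DESeq2. In HT29 the number raised went from 0 to 1 with DESeq2, ran from 0 to 2 when 1 library was left out, and reached 4 with trimmed mean scaling and 6 with edgeR when RPMI library 1 was also left out; the last also lowered 1, BCKDK. Differences between lines went from 0 to 1 called gene, MCCC1, with trimmed mean scaling, median centring, no mitochondrially encoded genes, edgeR or DESeq2, ran from 0 to 1 when 1 library was left out, and reached 2 and 5 with trimmed mean scaling and edgeR without HT29 RPMI library 1. Sign changes in H441, all short of the threshold: BCAT2 was -0.02, -0.04, 0.00 and -0.01 with trimmed mean scaling, median centring, edgeR and DESeq2, BCKDHA -0.02 with median centring and 0.00 to 0.30 when 1 library was left out (0.00 without HPLM library 3), DBT -0.08, -0.11, -0.05, -0.08 and -0.09 with trimmed mean scaling, median centring, no mitochondrially encoded genes, edgeR and DESeq2, and MCCC2 -0.01, -0.03 and 0.00 with trimmed mean scaling, median centring and DESeq2. In HT29, leaving out 1 library gave -0.35 to 0.08 for DBT, -0.41 to 0.16 for MCCC2 and -0.13 to 0.35 for IVD. DBT was 0.08 and MCCC2 0.16 without RPMI library 1, 0.11 and 0.18 with trimmed mean scaling added, and 0.12 and 0.18 (adjusted p = 0.0166, past the threshold) with edgeR instead, while IVD was -0.10, -0.13 and -0.02 without RPMI library 2, RPMI library 3 and HPLM library 1. Except where the construction of the alternative shows it, the cause was not tested. The labels do not say whether same-numbered libraries are paired, and 3 libraries per group cannot settle it. Deviations of same-numbered libraries correlated at -0.0298, 0.0151 and -0.00337 in H441 and 0.0538, -0.0973 and 0.171 in HT29. Those of different-numbered libraries correlated at -0.0302 to 0.0386 in H441 and -0.167 to 0.123 in HT29. With the replicate block the genes called, over all genes, went from 7404 to 5483 in H441 and from 999 to 0 in HT29. Of all genes in HT29, 999 were called with all libraries, 0 to 6767 with 1 left out, the highest without RPMI library 1, and 1745 and 3416 by edgeR and DESeq2. BCAT1, with 28 to 59 reads a library, changed by 0.14 (adjusted p = 0.610) in H441 by edgeR, and by -0.24 (adjusted p = 0.588) in HT29.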
